A study of Mus musculus with 10 samples.

Results

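The heart and smooth muscle genes described here are 33 genes of whole mouse lung chosen by name. Of these, 20 belong to cardiac muscle and 13 to smooth muscle. Every non-control probe whose printed or current gene symbol was on the list was taken, which gave 61 of 41174 probes and 33 of 27670 named genes. The lungs came from male mice on a C57BL/6J background, 8 weeks old, that had inhaled a saline aerosol for 30 min. In one group of 5 the mice were wild type, and in the other group of 5 they were p53-null, lacking the transcription factor encoded by Trp53. The labels name neither the p53 allele nor how the lungs were trimmed, and each array held the RNA of 1 biological replicate. Values are log2 of the array signal relative to the 75th percentile of the same array, so 0 is the 75th percentile and 1 unit is a doubling. A difference is always p53-null minus wild type.

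In the mouse, heart-type striated muscle extends from the left atrium into the walls of the pulmonary veins inside the lung, so lung RNA holds transcripts of atrial muscle. Atrial muscle uses the light chains Myl7 and Myl4, the hormone Nppa and the calcium pump regulator sarcolipin, whereas ventricular muscle and slow skeletal muscle use Myl2 and Myl3. Smooth muscle wraps airways and vessels, runs a different myosin and actin set, and takes much of its gene programme from serum response factor, which binds CArG boxes with the coactivator myocardin.

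The probes below are some of those measured. They are those for the atrial hormone, the light chains of ventricular muscle, an atrial light chain, a troponin, and a smooth muscle actin. Coordinates are on mm7, per the file headers, and each 60-base probe covers more genomic bases than its own length, so each lies across an intron and reads spliced RNA. For Nppa, Myl4 and Acta2 the printed probe is a further one, and a brighter probe stands for the gene in the tests. No base is in capitals, since no motif was searched in the probes.
Nppa, chr4:146990480-146990642, plus strand: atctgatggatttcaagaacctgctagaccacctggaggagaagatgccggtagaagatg
Myl2, chr5:121338175-121339125, plus strand: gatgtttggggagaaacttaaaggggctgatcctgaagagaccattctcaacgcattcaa
Myl3, chr9:110466830-110467124, plus strand: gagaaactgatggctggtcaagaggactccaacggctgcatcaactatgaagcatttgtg
Myl4, chr11:104693162-104693532, plus strand: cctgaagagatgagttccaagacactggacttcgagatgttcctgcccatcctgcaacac
Tnnt2, chr1:135737607-135737919, plus strand: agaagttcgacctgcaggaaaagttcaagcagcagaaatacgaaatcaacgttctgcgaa
Acta2, chr19:33949738-33952992, minus strand: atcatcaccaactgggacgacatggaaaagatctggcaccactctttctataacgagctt
Laid against each other without gaps, no probe of one member matched a probe of another member at more than 33 of its bases, and the closest pair was a Myl3 and a Myh6 probe.

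Promoter sequences from RefSeq (GRCm38.p6) were found for 26 of the 33 genes, 17 cardiac and 9 smooth muscle. In the 250 bases before the start site, searched on both strands, the CArG box was present in Actc1, Myl3 and Myl7 of the cardiac genes (17.6%) and in Myl9 of the smooth muscle genes (11.1%). Among all 27025 genes with such a sequence the share was 1.62%. Only the exact pattern CCWWWWWWGG, with W for A or T, was counted. Near matches were left out in every gene, such as ccctatatgg and ccttgtttgg in Acta2, so a gene without a match here may still hold a variant box. The 180 bases before the start of each of these genes are printed because they carry that motif, in capitals.
Actc1, chr2:114052876-114053055, minus strand: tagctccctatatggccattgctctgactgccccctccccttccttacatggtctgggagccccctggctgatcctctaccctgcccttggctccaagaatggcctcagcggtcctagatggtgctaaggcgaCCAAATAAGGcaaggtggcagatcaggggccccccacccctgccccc
Myl3, chr9:110763498-110763677, plus strand: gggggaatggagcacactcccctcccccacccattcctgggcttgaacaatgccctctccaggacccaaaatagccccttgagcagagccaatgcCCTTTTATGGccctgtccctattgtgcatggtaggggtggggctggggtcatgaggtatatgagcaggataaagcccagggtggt
Myl7, chr11:5898783-5898962, minus strand: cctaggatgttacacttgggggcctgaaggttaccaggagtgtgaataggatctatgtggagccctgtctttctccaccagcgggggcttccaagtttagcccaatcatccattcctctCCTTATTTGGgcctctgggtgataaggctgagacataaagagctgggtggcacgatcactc
Myl9, chr2:156775284-156775463, plus strand: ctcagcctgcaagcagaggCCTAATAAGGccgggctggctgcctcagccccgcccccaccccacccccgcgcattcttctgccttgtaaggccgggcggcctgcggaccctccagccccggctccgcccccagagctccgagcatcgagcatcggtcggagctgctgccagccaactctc
Counting the last base before the start as -1, the box begins at -47 in Actc1, -85 in Myl3, -61 in Myl7 and -161 in Myl9. The MEF2 site, the motif of another muscle transcription factor, was present in Mybpc3 and Synpo2 and in 0.592% of all genes. The letters TATAAA, on either strand, were in Myl2, Nppa, Nppb and Pln among the cardiac genes and in Synpo2 among the smooth muscle genes, and in 14.3% of all genes. These matches describe the sequence and are not evidence of binding.

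Arrays had 71.4% to 84.0% of spots well above background, and no member spot was saturated. The 6 lung epithelial genes used to check the tissue, among them the surfactant genes Sftpc and Sftpb, were well above background on all 10 arrays. The Trp53 probe printed in 10 spots fell by 1.28 on the log2 scale in p53-null lung (limma adjusted p = 0.00589 over all probes), with wild-type array 5 at -2.22 between the other wild-type arrays and the p53-null arrays. A second Trp53 probe differed by 0.31 ± 0.28 (limma adjusted p = 0.504), and where either probe lies relative to the deleted part is not stated. Of the 21108 genes well above background on at least 5 arrays, 1582 differed between genotypes (limma, Benjamini-Hochberg adjusted p under 0.05), 971 higher and 611 lower in p53-null lung. Leaving out single arrays gave 192 calls without p53-null array 3, 6618 without wild-type array 5 and 322 to 965 for the rest. All 33 members were among the genes tested.

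No gene of either muscle set passed the test of genotype on the probe that stands for it, although 1 further probe of Atp2a2 did in the test over all probes. That test called 2247 of 31587 probes, and 57 member probes were among those tested. By limma with adjustment over all genes tested, 0 of 20 cardiac genes and 0 of 13 smooth muscle genes were called, against 7.49% of all genes tested (4.6% higher and 2.89% lower in p53-null lung). At an unadjusted p under 0.05 there were 2 cardiac genes, Myh7 and Tbx5, and 2 smooth muscle genes, Cnn1 and Myl9, against 27.6% of all genes tested. The sets differed in spread: 7 of 20 cardiac genes spanned more than 2 log2 units from the lowest to the highest of the 10 arrays, and 0 of 13 smooth muscle genes did, beside 15.1% of all genes tested. The median span was 1.86 for cardiac genes, 0.65 for smooth muscle genes and 0.85 for all genes tested. The median standard deviation within a genotype was 0.58, 0.21 and 0.24 in the same order. In whole lung, fewer cells of a type and less RNA per cell cannot be told apart.

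**Figure D1:**
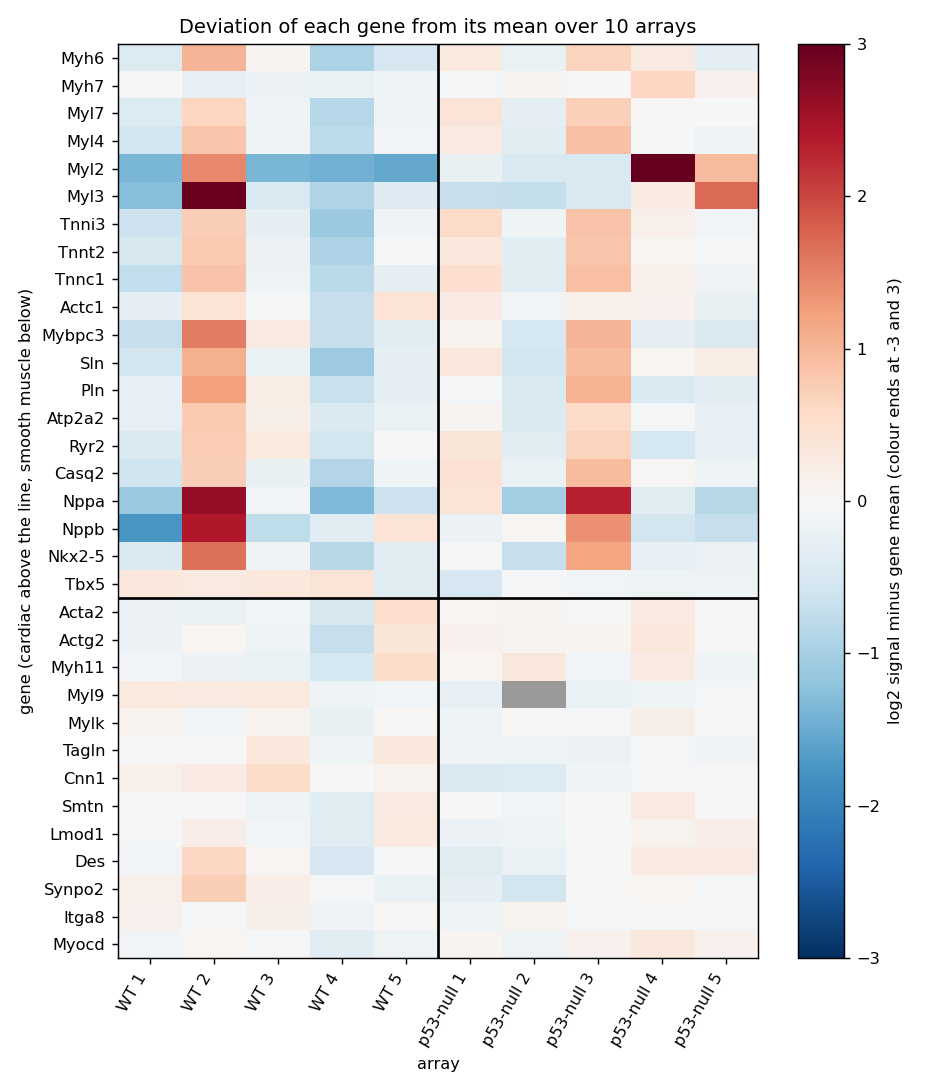
Log2 signal of each of the 33 genes (rows) on each of the 10 arrays (columns) minus the gene's mean over the arrays, with cardiac genes above the horizontal line, p53-null arrays right of the vertical line and a left-out spot in grey. Wild-type array 2 and p53-null array 3 are the 2 highest arrays for 15 of 20 cardiac genes and for 0 of 13 smooth muscle genes.

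Within each genotype, 1 array carried most of the high cardiac values. Wild-type array 2 was the highest of the 10 arrays for 11 cardiac genes and among the 2 highest for 18, and p53-null array 3 was highest for 6 and among the 2 highest for 15. Wild-type array 4 was the lowest for 15 of 20. The exceptions to the shared pair were Myh7, Myl2, Myl3, Actc1 and Tbx5. As the median over the 20 genes of each gene's deviation from its own mean, the cardiac level was -0.52, 0.84, -0.11, -0.82 and -0.23 on wild-type arrays 1 to 5. On p53-null arrays 1 to 5 it was 0.26, -0.31, 0.84, 0.04 and -0.14. One array of each genotype thus stood at the same height, and the ranges of the genotypes overlapped.

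The smooth muscle level did not follow these arrays. It ran from -0.31 on wild-type array 4 to 0.10 on wild-type array 5 among wild-type arrays, and from -0.12 to 0.17 among p53-null arrays. Wild-type array 5 was highest for 5 of 13 smooth muscle genes, and wild-type array 4 was lowest for 8 of 13, the same array that was lowest for most cardiac genes.

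**Figure D2:**
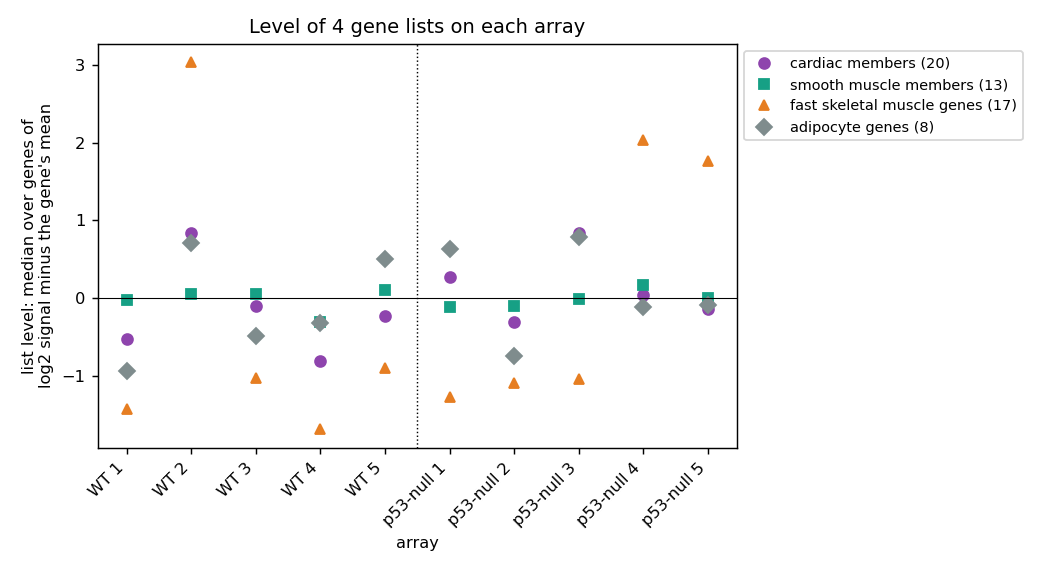
Level of 4 gene lists on each array, as the median over the list's genes of log2 signal minus the gene's mean, with wild-type arrays left of the dotted line. The cardiac list reaches 0.84 on wild-type array 2 and on p53-null array 3, the smooth muscle list stays between -0.31 and 0.17, and the fast skeletal list is high on p53-null arrays 4 and 5 and wild-type array 2.

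The hormone genes had the widest spread among the genes that followed the pair of high arrays. Nppa encodes atrial natriuretic peptide, released by stretched atrial muscle, and read 2.73, 6.47, 3.75, 2.50 and 3.21 on wild-type arrays 1 to 5 and 4.22, 2.79, 6.17, 3.53 and 2.998 on p53-null arrays 1 to 5. Wild-type array 2 and p53-null array 3 lay far above the rest, and the groups overlapped over nearly their whole range. The difference was 0.21 ± 0.85 (SE; limma adjusted p = 0.905; 95% interval -1.69 to 2.10). The Nppa probe whose sequence is printed above is a second probe of the gene, and it read 4.77 on wild-type array 2, 4.76 on p53-null array 3 and between 0.25 and 2.56 on the others.

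Nppb, the gene of B-type natriuretic peptide, was dimmer on its own probe. It read -4.50, -0.35, -3.52, -3.06 and -2.34 on wild-type arrays 1 to 5 and -2.92, -2.69, -1.37, -3.30 and -3.44 on p53-null arrays 1 to 5. The same arrays were the highest of each genotype, and the difference was 0.0089 ± 0.71 (limma adjusted p = 0.996). A second Nppb probe had the same pair on top, at 0.19 and -0.89, with the others between -5.28 and -3.04.

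The cardiac transcription factors parted. Nkx2-5, a homeodomain factor of heart muscle identity, read -3.18, -1.08, -2.84, -3.56 and -3.06 on wild-type arrays 1 to 5 and -2.78, -3.44, -1.55, -2.98 and -2.93 on p53-null arrays 1 to 5. Only wild-type array 2 and p53-null array 3 were above -2.78, and the difference was 0.013 ± 0.49 (limma adjusted p = 0.990). Tbx5 is a T-box factor of the atria that lung mesenchyme also expresses, and it showed no such pair. It read 2.27, 2.22, 2.27, 2.34 and 1.60 on wild-type arrays 1 to 5 and 1.44, 1.92, 1.87, 1.79 and 1.80 on p53-null arrays 1 to 5. Wild-type array 5 alone fell into the p53-null range. The difference of -0.37 ± 0.15 did not pass (limma adjusted p = 0.152), and without wild-type array 5 it was -0.51 ± 0.099 and passed (limma adjusted p = 0.00595). In that comparison of 9 arrays, 6618 genes were called in all, 31.4% of those tested. These values are from the probe that stands for the gene. A second, dimmer Tbx5 probe had wild-type array 5 highest of all arrays, at -2.25, and its groups overlapped. It differed by -0.22 ± 0.14 (limma adjusted p = 0.359 over all probes).

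**Figure D3:**
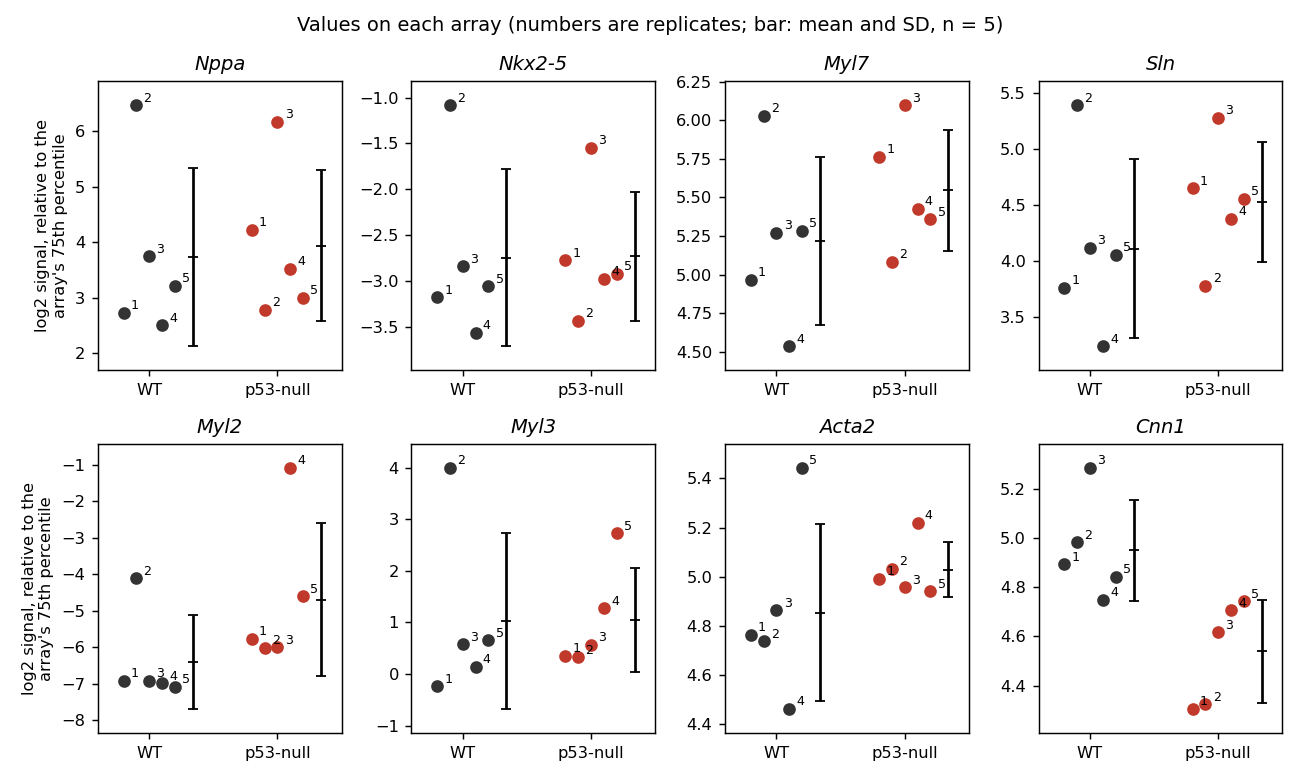
Log2 signal of 8 genes on each array relative to the array's 75th percentile, with wild-type arrays in black, p53-null arrays in red, the replicate number beside each point and the mean and SD of 5 arrays as a bar. Nppa, Nkx2-5, Myl7 and Sln peak on wild-type array 2 and p53-null array 3, Myl2 peaks on p53-null array 4 and Myl3 on wild-type array 2, and the axes differ between genes.

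The contractile genes of atrial muscle moved with the same pair over a smaller range. The atrial regulatory light chain Myl7 read 4.97, 6.03, 5.27, 4.54 and 5.28 on wild-type arrays 1 to 5 and 5.76, 5.08, 6.10, 5.43 and 5.36 on p53-null arrays 1 to 5. Both high arrays exceeded the next array, p53-null array 1, and the difference was 0.33 ± 0.28 (limma adjusted p = 0.478). Myl4, the atrial essential light chain, read 4.90 on wild-type array 2 and 4.94 on p53-null array 3, with the other arrays between 3.28 and 4.34. Its second probe, printed above, had 4.78 and 4.87 on these arrays and 3.07 to 4.31 on the others. Myh6, the fast cardiac myosin heavy chain, spanned 3.04 to 5.00 in wild-type and 3.70 to 4.67 in p53-null lung. Its difference was 0.31 ± 0.35 (limma adjusted p = 0.608). A second Myh6 probe read 3.82 on p53-null array 3, then 3.64 on p53-null array 1 and 3.58 on wild-type array 2. That probe differed by 0.73 ± 0.39 (limma adjusted p = 0.260 over all probes).

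The thin filament genes did likewise. Troponin I (Tnni3) ranged from 2.36 to 4.34, troponin T (Tnnt2) from 3.20 to 4.94 and troponin C (Tnnc1) from -0.85 to 0.86, each with p53-null array 3 highest and wild-type array 4 lowest. Their differences were 0.55 ± 0.33, 0.33 ± 0.31 and 0.45 ± 0.34, none past the test (limma adjusted p from 0.310 to 0.528). Actc1, the cardiac actin, spanned 1.10 and was highest on wild-type arrays 2 and 5, at 3.62 and 3.61.

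Mybpc3, the thick filament protein myosin-binding protein C of the heart, read 1.76, 3.99, 2.72, 1.75 and 2.14 on wild-type arrays 1 to 5 and 2.57, 1.92, 3.46, 2.16 and 2.02 on p53-null arrays 1 to 5. It again had wild-type array 2 and p53-null array 3 on top of overlapping groups. Its difference was -0.048 ± 0.46 (limma adjusted p = 0.960).

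Among the genes of calcium handling, Sln had the widest span. Sln encodes sarcolipin, an inhibitor of the calcium pump, and read 3.76, 5.39, 4.12, 3.24 and 4.05 on wild-type arrays 1 to 5 and 4.65, 3.78, 5.28, 4.38 and 4.55 on p53-null arrays 1 to 5. The pair of high arrays was the same, and the difference was 0.42 ± 0.39 (limma adjusted p = 0.529). The other pump inhibitor, phospholamban (Pln), spanned 1.88, the calcium store protein Casq2 1.83 and the release channel Ryr2 1.32. On the probe that stands for the gene, all 3 had the same 2 highest arrays. A second, dimmer Ryr2 probe did not: it was highest on p53-null array 1 (-5.73) and wild-type array 5 (-5.77). There wild-type array 2 read -6.12 and p53-null array 3 read -6.28. Second probes of Sln and Tnni3 did have the pair highest.

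Atp2a2, the calcium pump itself, gave different answers on different probes. Its brightest probe differed by -0.029 ± 0.25 (limma adjusted p = 0.957), and another by -0.088 ± 0.29. The third probe, singled out after its values were seen, lies at chr5:121691063-121691122 on mm7, minus strand. It read 0.73, 0.95, 1.34, 0.98 and 0.25 on wild-type arrays 1 to 5 and -0.12, -0.057, -0.089, 0.12 and 0.078 on p53-null arrays 1 to 5. The groups did not overlap, and the difference of -0.86 ± 0.18 passed the test over all probes (limma adjusted p = 0.0261). In that test 2247 of 31587 probes were called. Groups did not overlap for 9.33% of all genes tested, and the share over probes was not counted. This probe did not have the pair of high arrays, and which transcript it reads was not tested.

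Myl2 and Myl3, the light chains of ventricular and slow skeletal muscle, departed from the atrial genes. Myl2 read -6.92, -4.11, -6.91, -6.99 and -7.09 on wild-type arrays 1 to 5 and -5.77, -6.02, -6.00, -1.08 and -4.60 on p53-null arrays 1 to 5. It was well above background on 3 of 5 wild-type and all 5 p53-null arrays. P53-null array 4 stood far above every other array, followed by wild-type array 2 and p53-null array 5, and p53-null array 3 was not raised. The difference of 1.71 ± 0.99 was the highest of the 33 genes and did not pass (limma adjusted p = 0.294; 95% interval -0.51 to 3.93).

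Myl3 read -0.24, 3.99, 0.58, 0.14 and 0.65 on wild-type arrays 1 to 5 and 0.35, 0.33, 0.57, 1.27 and 2.73 on p53-null arrays 1 to 5. Wild-type array 2 and p53-null array 5 were highest, and the difference was 0.025 ± 0.80 (limma adjusted p = 0.988). Myh7, the slow myosin heavy chain of ventricle and slow skeletal muscle, was highest on p53-null array 4 at 3.64, with the other arrays between 2.75 and 3.13. Its difference was 0.31 ± 0.13 (limma adjusted p = 0.162).

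The arrays high for Myl2 and Myl3 were those high for fast skeletal muscle genes. Over 17 of 18 listed fast skeletal genes the level was 3.04 on wild-type array 2, 2.04 on p53-null array 4 and 1.77 on p53-null array 5, and between -1.69 and -0.91 on the others. Their summed signal, as multiples of the 75th percentile, ran from 5.94 to 219 on wild-type and from 8.13 to 104 on p53-null arrays, and every one of the 17 was well above background on some array. The fast myosin Myh1 read 4.48, 2.52 and 3.20 on those 3 arrays and at most -4.04 elsewhere. Over 4 of 5 listed slow skeletal genes the level was 0.58 on p53-null array 4 and 0.30 on wild-type array 2. Then came p53-null array 2 (0.19), wild-type array 5 (0.15) and p53-null array 5 (0.11), so the slow list did not single out those 3 arrays. The slow list includes Myoz2, which is also in the list of other heart genes described below. Myoz2 was highest on wild-type array 2 (1.35) and p53-null array 3 (1.26) and read 0.56 and 0.47 on p53-null arrays 4 and 5. Of the slow genes, troponin T1 (Tnnt1) was highest on p53-null array 4, at 0.42, and at most -0.55 on the others. On p53-null array 3, where the atrial genes were high, the fast skeletal level was -1.04. The part of skeletal muscle RNA in the Myl2, Myl3 and Myh7 values was not tested.

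None of the skeletal genes was called either. The fast list had a median difference of 0.76, with Ryr1 at 1.33 ± 0.66 (limma adjusted p = 0.219) and Myh4 at 0.78 ± 0.68 (limma adjusted p = 0.497). In the slow list, Tnnt1 differed by 0.53 ± 0.29 and Tnni1 by 0.83 ± 0.57 (limma adjusted p = 0.264 and 0.381). No fast skeletal and no slow skeletal gene had an unadjusted p under 0.05.

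A list of 35 other heart genes behaved on these arrays as the cardiac members did. Its level over the 32 tested was 0.92 on wild-type array 2 and 0.60 on p53-null array 3, against at most 0.22 on the other arrays, and -0.66 on wild-type array 4. By limma 0 of 32 were called, 2 had an unadjusted p under 0.05, and the median difference was 0.30. These were Jph2, which ties the surface membrane to the calcium store (0.42 ± 0.16, limma adjusted p = 0.137), and the fatty acid carrier Fabp3 (0.65 ± 0.28, limma adjusted p = 0.170). The list holds genes that skeletal muscle also uses, such as Trdn, which read 1.14 on wild-type array 2, -0.035 on p53-null array 3 and -0.43 and -0.29 on p53-null arrays 4 and 5, with the rest at most -0.99.

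Adipocyte genes stood high on the same pair as well as on other arrays. Their level was 0.71 on wild-type array 2 and 0.78 on p53-null array 3, then 0.63 on p53-null array 1 and 0.50 on wild-type array 5. Ucp1, the uncoupling protein of brown fat, read 1.43 on p53-null array 1, 0.87 on p53-null array 3 and -1.29 on wild-type array 2, and at most -2.56 elsewhere. The summed signal of the 8 adipocyte genes ran from 51.9 to 142 on wild-type and from 50.5 to 122 on p53-null arrays. Leptin (Lep) was called higher in p53-null lung (limma adjusted p = 0.0328), at mean log2 signals of -8.12 and -6.09, but it was well above background on 1 wild-type and 4 p53-null arrays, so the size of the difference rests on signals near background. Squamous epithelial genes, as of oesophagus or skin, were high on wild-type array 2 (level 4.37) and p53-null array 5 (2.98) but not on p53-null array 3. The part of adjacent tissue in the cardiac values was not tested.

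**Figure D4:**
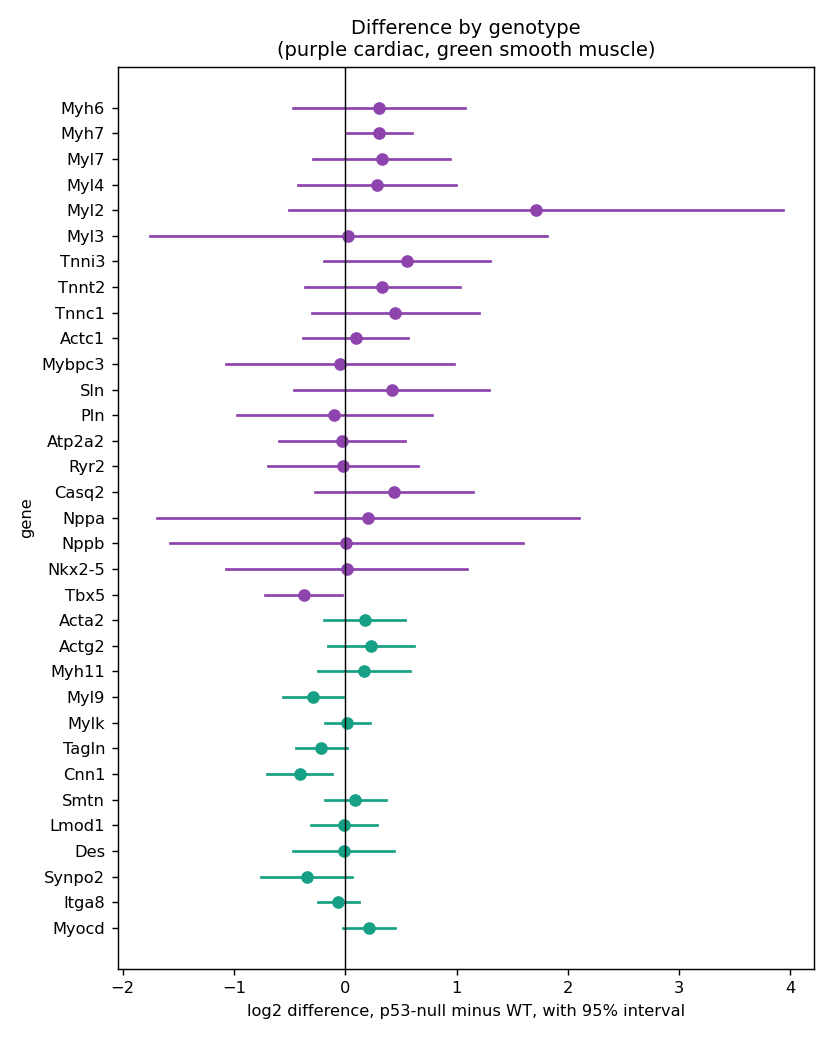
Difference in log2 signal (horizontal axis) with its 95% interval from limma for each of the 33 genes (vertical axis), cardiac in purple and smooth muscle in green. Most cardiac intervals are wider than the smooth muscle intervals, and those of Myh7, Tbx5, Myl9 and Cnn1 exclude 0 before adjustment, with no gene called after it.

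The middle of the cardiac differences lay above 0 but moved with single arrays. Their median was 0.25 beside 0.05 for all genes tested, with 15 genes above 0 and 5 below, and 12 and 14 above 0 when arrays were scaled by their median or by quantiles. It was 0.55 without wild-type array 2, 0.019 without wild-type array 4, 0.10 without wild-type array 1 and 0.12 without p53-null array 3. With both of the arrays highest for cardiac genes removed, a choice made after the data were seen, it was 0.34, and without the 3 arrays high for skeletal genes 0.65. Blocking on slide number range gave a median of 0.097, and arrays of the lower range alone gave 0.14, as did those of the higher range, which include 1 p53-null array. A fixed slide block rests on the slide with 1 array of each genotype, p53-null array 2 and wild-type array 4, and gave 0.42. In each of these fits 0 cardiac genes were called.

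Among the contractile genes of smooth muscle, the difference of Cnn1 had the smallest adjusted p. Cnn1, calponin, an actin-binding protein of differentiated smooth muscle, read 4.89, 4.98, 5.28, 4.75 and 4.84 on wild-type arrays 1 to 5 and 4.31, 4.33, 4.62, 4.71 and 4.74 on p53-null arrays 1 to 5. It was the only smooth muscle gene whose groups did not overlap, beside 9.33% of all genes tested, and the closest arrays, wild-type 4 and p53-null 5, were nearly level. The difference of -0.41 ± 0.13 did not pass (limma adjusted p = 0.0791). It passed without wild-type array 5 (limma adjusted p = 0.0416), with a robust intensity-dependent variance (0.0484) and with array weights (0.0360). Those fits called 31.4%, 10.7% and 30.9% of all genes tested, in the same order.

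Acta2, the smooth muscle actin of vessels and airways, read 4.76, 4.74, 4.86, 4.46 and 5.44 on wild-type arrays 1 to 5 and 4.99, 5.03, 4.96, 5.22 and 4.94 on p53-null arrays 1 to 5. Wild-type array 5 was above and the other wild-type arrays below every p53-null array. The difference was 0.17 ± 0.16 (limma adjusted p = 0.525), and without wild-type array 5 it was 0.32 ± 0.097 and passed (limma adjusted p = 0.0351). Without that array, 31.4% of all genes tested were called. Other Acta2 probes well above background differed by 0.30 (the probe printed above), 0.08 and -0.48, so its probes disagreed in sign.

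Myh11, the smooth muscle myosin heavy chain, had the widest span of the contractile genes. It read 2.12, 2.05, 2.02, 1.70 and 2.76 on wild-type arrays 1 to 5 and 2.27, 2.55, 2.14, 2.47 and 2.09 on p53-null arrays 1 to 5. Wild-type arrays 4 and 5 were the lowest and the highest, with every p53-null array between them, and the difference was 0.17 ± 0.19 (limma adjusted p = 0.592). The enteric actin Actg2 had the same outer arrays, at 1.61 and 2.67, and a difference of 0.23 ± 0.17.

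Myl9, the regulatory light chain of smooth muscle, differed by -0.29 ± 0.12 (limma adjusted p = 0.152), with 4 p53-null values because the spot on p53-null array 2 had an outlier flag. Tagln, the actin-binding protein transgelin, differed by -0.21 ± 0.10 (limma adjusted p = 0.211), and on a second, dimmer probe by 0.014 ± 0.15. The kinase Mylk, which phosphorylates Myl9, had a difference of 0.018 ± 0.091 and a span of 0.40 on its brightest probe. A further Mylk probe differed by 0.28 ± 0.14 with a span of 0.86, and a dim one by -0.37 ± 0.31. Smtn and Lmod1, an actin-associated and an actin-nucleating protein, differed by 0.089 ± 0.12 and -0.0087 ± 0.13.

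In the filament and adhesion group, Synpo2, an actin-bundling protein, read 1.40, 1.9996, 1.45, 1.23 and 1.05 on wild-type arrays 1 to 5 and 0.95, 0.70, 1.24, 1.30 and 1.21 on p53-null arrays 1 to 5. Wild-type array 2 was highest, the groups overlapped, and the difference was -0.35 ± 0.18 (limma adjusted p = 0.252). Other Synpo2 probes differed by -0.34, -0.068 and 0.084, so its probes disagreed in sign. Desmin (Des), the intermediate filament shared by all muscle types, was also highest on wild-type array 2, at 2.53, and its difference was -0.014 ± 0.20. Itga8, an integrin subunit, had the narrowest span of the 33 genes, 0.33, on the probe that stands for it, and spans of 0.46 and 1.09 on its other probes.

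Myocd, the gene of myocardin, read -3.20, -3.04, -3.14, -3.42 and -3.26 on wild-type arrays 1 to 5 and -3.02, -3.26, -2.97, -2.78 and -2.96 on p53-null arrays 1 to 5. The p53-null arrays other than array 2 lay above every wild-type array, and the difference was 0.21 ± 0.10 (limma adjusted p = 0.221). A second, dimmer Myocd probe did not show this order: wild-type array 5 was highest, at -4.31, and p53-null array 1 read -5.34. That probe differed by 0.19 ± 0.25 (limma adjusted p = 0.666 over all probes). The smooth muscle median was -0.0087, with 6 genes above 0 and 7 below. It was 0.02 with quantile scaling and -0.08 with median scaling, so it has no settled sign.

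Among 31 of 33 other smooth muscle genes tested, 1 was called: Ppp1r14a, an inhibitor of myosin phosphatase, rose by 0.42 ± 0.091 in p53-null lung (limma adjusted p = 0.0296). Beside this count and those that follow, 7.49% of all genes tested were called. Of neighbouring cell types, the pericyte list had 1 of 9 called, the matrix protein Postn (-0.58 ± 0.13, limma adjusted p = 0.0326). The fibroblast list had 4 of 10 called, all lower, led by the collagens Col3a1 (-0.94 ± 0.12) and Col1a2 (-0.82 ± 0.11) and by the matrix protein gene Npnt (-1.04 ± 0.20), with limma adjusted p of 0.00891, 0.011 and 0.0234. The summed signal of the fibroblast list ran from 150 to 192 on wild-type and from 115 to 133 on p53-null arrays, without overlap. That of the pericyte list did not overlap either, at 40.8 to 46.6 on wild-type and 33.8 to 38.4 on p53-null arrays. Taken singly, 9.33% of all genes tested had groups that did not overlap. The endothelial list had 1 of 8 called, Plvap of fenestrated vessels (-0.40 ± 0.087, limma adjusted p = 0.0296).

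The remaining lists held 1 called gene, beside a share of 7.49% over all genes tested. The cartilage list had 1 of 5 called, the collagen Col2a1 (-1.06 ± 0.22, limma adjusted p = 0.0264). By limma 0 of 6 mesothelial genes were called, with 2 at an unadjusted p under 0.05, Msln (-0.43 ± 0.15) and Upk1b (-0.28 ± 0.10). None of 8 squamous and 6 lung epithelial genes reached even an unadjusted p under 0.05 by limma, and those with the smallest p were Sprr1a and Trp63 (-0.58 ± 0.89 and -0.34 ± 0.61) and Scgb1a1 and Sftpc (0.18 ± 0.13 and 0.21 ± 0.18).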

How the data were processed

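Cy3-labelled RNA of 10 lungs was read on 1-colour Agilent arrays. Version 9.5 of Agilent Feature Extraction made the deposited intensity, as the submitters' processing notes say, and per the file headers that intensity had background subtracted and spatial trends removed. The deposited value table equalled it exactly (largest difference 0). Here each array's intensities were divided by their 75th percentile without control spots and put on the log2 scale. A spot with an outlier flag was dropped, repeated spots were averaged by probe, and the probe with the highest mean stood for its gene. Genes well above background on at least 5 arrays were compared with limma 3.58.1 (lmFit, eBayes; R 4.3.3), and p-values were adjusted over all genes tested by Benjamini-Hochberg with a threshold of 0.05. Probe symbols came from the files or, through accessions and synonyms, from a RefSeq table of GRCm38 used for names. The number of arrays limits the precision.

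The members and gene lists were chosen with earlier results of these data known. Every member is accounted for. Values on each array are given for members called, for members spanning over 2 log2 units and for the member with the widest span of each role, and for Tbx5, Myl7, Cnn1, Acta2 and 1 Atp2a2 probe chosen after their values were seen. Of each other list the called genes with the smallest p are named, up to 3, or 2 where none was called; further genes of those lists, such as Trdn, Myh1 and Ucp1, were chosen for their values by array. Genes of 1 list that this rule names are not reported here. The lung epithelial list was added after seeing the data. A level of a list on an array is a description with no test. Tested on simulated data for this comparison (20606 genes), the steps found 35.8% of 67 genes changed 1.5-fold, 58.2% of 67 changed 2-fold and 92.4% of 66 changed 4-fold, and made 8 false calls. The simulated noise was independent between genes. It held no differences between arrays that many genes share, as these data do, so the shares and false calls are not rates for the real comparison.

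Alternatives were other background correction, scaling, dim-probe filters, probe choices, variance models, array weights and thresholds, blocks for slide, range of slide numbers, scan day and replicate number, and arrays left out.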

Additional observations from a re-analysis of the deposited data

Results flagged for a closer look

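In each genotype, the 33 members, each on the probe that stands for it, and the levels of 7 lists were examined. The lists were both member sets, other heart, other smooth muscle, fast skeletal, adipocyte and squamous genes. In 11 of these 80 groups of 4 or 5 arrays, 1 array lay apart from the others by Dixon's criterion. For a single group of independent values, chance gives about 1 in 20. The groups here share arrays and genes that vary together, and the lists were chosen with earlier results known. The count can therefore not be read against that rate, and the other lists were not examined in this way. In p53-null lung, array 4 was apart for Myl2 (-1.08, nearest -4.60), Myh7 (3.64, nearest 3.13) and Smtn (1.14, nearest 0.87). In wild-type lung, array 2 was apart for Myl2 (-4.11, nearest -6.91) and Myl3 (3.99, nearest 0.65). The list of other heart genes had a level of 0.92 on that array (nearest -0.21), and the fast skeletal list 3.04 (nearest -0.91). The squamous list was apart on that array at 4.37 (nearest -0.68) and on p53-null array 5 at 2.98 (nearest -0.77). Tbx5 was apart on the low side on wild-type array 5 (1.60, nearest 2.22) and on p53-null array 1 (1.44, nearest 1.79). Nppa, Nppb and Nkx2-5 were not singled out by this criterion in either genotype. No explanation was tested.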

How the results depend on the processing

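No member of either set was called in the main comparison or under normexp background, quantile or median scaling, either filter, the mean over probes, any slide, slide range or scan day setting, or without the 3 arrays high for skeletal genes. Cardiac calls numbered 1 with array weights (Tbx5) and 1 with every probe singly (Atp2a2), and 0 to 1 with single arrays left out (Tbx5). Smooth muscle calls numbered 1 with the robust trend fit and 1 at an adjusted p under 0.1 (both Cnn1), 2 with array weights (Cnn1 and Myl9), and 0 to 2 with single arrays left out (Cnn1 and Acta2, without wild-type array 5). The smooth muscle median moved to 0.24 with slide as a fixed block. Over all genes tested, the robust trend fit called 2254. The count over all genes was 583 with median scaling, 538 without the filter, 999 with the mean over probes, 697 with slide range as a block, 16 within the lower range, 322 with scan day as a block, 6512 with array weights, 10 without the 3 skeletal-high arrays, 25 without wild-type array 2 and p53-null array 3, and 3526 at an adjusted p under 0.1. By limma it was 0 with slide as a fixed block and 0 within the higher range (1134 and 2597 at an unadjusted p under 0.05), and 192 to 6618 with single arrays left out. Replicate numbers do not pair the arrays (correlations of same-numbered arrays from -0.22 to 0.0011); with a replicate block 26 genes were called, no member among them. The higher range and the fixed slide block rest on 1 p53-null array. Dim members such as Myl2, Ryr2 and Nppb are limited by signal over background.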
